A study of Mus musculus with 3 samples.

Results

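The genes of the collagens that mark cartilage were followed by symbol through single-cell libraries of day 5 ectopic masses. They were *Col2a1*, *Col9a1*, *Col9a2*, *Col9a3*, *Col10a1*, *Col11a1*, *Col11a2* and *Col27a1*, 8 of the 31053 genes in the count tables, and each symbol matched 1 gene. The masses came from female CD-1 mice, 6-8 weeks old, with 1 droplet library for each of 3 groups and no engineered allele named for any of them. Matrigel-only mice carried an implant of Matrigel, a basement membrane gel, and received nothing by mouth. Vehicle mice carried Matrigel with rhBMP2, a recombinant bone morphogenetic protein under which cartilage and then bone form at the site, and were given corn oil with DMSO. Palo mice carried the same rhBMP2 implant and received palovarotene, an agonist of retinoic acid receptor gamma, at 4 mg/kg daily. Matrigel-only differed from the other groups both in rhBMP2 and in the gavage, and these cannot be told apart here. The cells of a group entered a single library, so no difference between groups had a replicate check and no test between groups was run. All intervals below are 95% exact intervals that cover counting error only. Those of levels and ratios treat UMIs as independent and leave out the spread between cells.

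Collagen II builds the main fibril of cartilage. Collagen XI, whose chains are encoded by *Col11a1* and *Col11a2* and which also takes up a product of *Col2a1*, sits inside that fibril and governs its nucleation and width. Collagen IX is a heterotrimer of the *Col9a1*, *Col9a2* and *Col9a3* chains that decorates the fibril surface, collagen XXVII is a minor fibrillar collagen encoded by *Col27a1*, and collagen X forms networks around hypertrophic chondrocytes. SOX9, with SOX5 and SOX6, is the known driver of the type II, IX and XI genes in chondrocytes.

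On mm10 the members lie on 7 chromosomes, and only *Col9a2* and *Col27a1* share one. *Col2a1* (chr15:97975602-98004695) is on the minus strand and the others are on the plus strand. They are *Col11a1* (chr3:114030540-114220718), *Col11a2* (chr17:34039437-34066685), *Col27a1* (chr4:63214004-63334991), *Col9a1* (chr1:24177610-24252684), *Col9a2* (chr4:121039385-121055322), *Col9a3* (chr2:180597790-180622189) and *Col10a1* (chr10:34389981-34397085). In GENCODE vM21 the longest transcripts of the fibrillar members hold 54 exons for *Col2a1*, 67 for *Col11a1*, 64 for *Col11a2* and 61 for *Col27a1*, whereas *Col10a1* holds 3. *Col10a1* lies within *Nt5dc1*, *Col9a3* overlaps *Tcfl5*, both on the opposite strand, and *Col27a1* holds *Mir455*. How strand was used in counting is not given in the sources used here, so reads of such overlaps are uncertain.

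The 250 bases before the transcription start are shown for 4 members, because these genes gave the contrasts described below: the paired chains of collagen XI, a type IX chain with 0 UMIs in stromal cells outside Vehicle, and *Col10a1*, which stayed near 0. They are from RefSeq on GRCm38.p6, 5′ to 3′, with capitals at matches to the SOX-type core ACAAAG, its relative ACAATG, the core TCAAAG or its relative TCAATG on either strand. The table held 7 entries for 6 of the members. *Col2a1* and *Col9a3* are named only.
Col11a1 (chr3:114030290-114030539, + strand): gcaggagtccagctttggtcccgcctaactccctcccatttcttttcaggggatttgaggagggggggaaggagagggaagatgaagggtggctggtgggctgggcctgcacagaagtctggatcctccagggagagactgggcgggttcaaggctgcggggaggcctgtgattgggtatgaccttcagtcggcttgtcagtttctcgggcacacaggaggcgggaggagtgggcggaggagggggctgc
Col11a2 (chr17:34038888-34039137, + strand): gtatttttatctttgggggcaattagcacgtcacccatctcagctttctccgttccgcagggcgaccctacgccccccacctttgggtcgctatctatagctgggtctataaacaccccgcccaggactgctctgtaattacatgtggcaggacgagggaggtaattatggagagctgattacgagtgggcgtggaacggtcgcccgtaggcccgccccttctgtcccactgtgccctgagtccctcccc
Col9a1 (chr1:24177360-24177609, + strand): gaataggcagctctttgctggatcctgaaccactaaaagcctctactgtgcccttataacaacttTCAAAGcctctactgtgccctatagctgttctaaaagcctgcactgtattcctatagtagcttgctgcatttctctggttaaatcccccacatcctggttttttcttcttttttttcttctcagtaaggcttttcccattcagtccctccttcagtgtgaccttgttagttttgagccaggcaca
Col10a1 (chr10:34389731-34389980, + strand): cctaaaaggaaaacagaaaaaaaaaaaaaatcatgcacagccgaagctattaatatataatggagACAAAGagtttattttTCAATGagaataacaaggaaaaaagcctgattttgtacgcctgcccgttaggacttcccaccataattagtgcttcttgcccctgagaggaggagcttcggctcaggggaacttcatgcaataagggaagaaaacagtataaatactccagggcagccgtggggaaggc
The *Col9a1* window held 1 match and that of *Col10a1* held 2, while the windows of *Col11a1* and *Col11a2* held none. Of the 3 entries not printed, which lie wholly or partly inside annotated gene bodies, that of *Col9a2* held 1 match and those of *Col27a1* and of an inner *Col9a1* start held none. Of all 32851 promoter windows of the same length, 39.4% held a match. The windows also differed in CpG dinucleotides, with 14 in *Col11a2*, 7 in *Col11a1*, 5 in *Col10a1* and 0 in *Col9a1*, against a median of 6 over all windows. These matches describe the letters only.

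Stromal cells were those with at least 1% of UMIs, the unique molecular identifiers that count RNA molecules, from *Col1a1*, *Col1a2*, *Col3a1*, *Dcn* and *Lum*. This gave 2085 Matrigel-only, 1373 Vehicle and 1184 Palo cells of 8728, 5478 and 7297 that passed the filters. Their median depth was 9082, 17114 and 12955 UMIs. Between 18 and 151 passing cells per library had 0.5% to 2% of such UMIs, near the limit. All 8 genes of a separate stromal marker list were above 10 CPM in stromal cells of every library, and their summed level was 7349 to 14524 CPM against 67.5 to 130 CPM in leukocytes. CPM is the UMIs of a gene per 1000000 UMIs of the cells summed. The 5 leukocyte markers summed to 104 to 259 CPM in stromal cells against 6425 to 7162 CPM in leukocytes. Mural markers summed to 15.5 Matrigel-only, 86.1 Vehicle and 20.1 Palo CPM in stromal cells, and endothelial markers to 18.7, 3.56 and 12.4 CPM. Their part in the results was not tested. Pairs of libraries shared 11 to 21 barcodes.

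*Col2a1*, *Col11a1*, *Col11a2* and the type IX genes were each at least 15.5-fold higher in Vehicle stromal cells than in either other library, *Col27a1* was about 2-fold higher, and *Col10a1* was barely present anywhere. With 1 CPM added to each level, 6 of the 8 members were at least 4-fold higher in Vehicle than in Matrigel-only, where 1.46% of 10311 genes with a mean of at least 5 CPM were. The same 6 were at least 4-fold higher in Vehicle than in Palo, against 1.54% of genes. These comparisons share the Vehicle library and are not independent. No member was 4-fold higher in Palo than in Matrigel-only, where 0.0194% of genes were, and none was 4-fold lower, where 0.116% of genes were. The median log2 ratio over the 8 members, with 1 CPM added, was 6.10 for Vehicle over Matrigel-only, 5.81 for Vehicle over Palo and 0.09 for Palo over Matrigel-only, beside -0.04, -0.01 and -0.03 over all 10311 genes. With no CPM added and levels below 3 UMIs set to that floor, the member medians were 7.42, 6.71 and 0.34. Of the 8 members 7 passed the 5 CPM filter, but only 2 would have passed on Matrigel-only and Palo alone, so these counts describe the libraries and support nothing by themselves.

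*Col2a1*, the gene of the main fibril, showed the widest contrast. Its level was 1586 CPM in Vehicle (37404 UMIs, interval 1569 to 1602), 1 UMI in Matrigel-only and 0 UMIs in Palo. Vehicle was thus 14.96 log2 units above Matrigel-only, with an interval of 12.48 to 20.26 set by that single UMI, and 13.37 units above it with Matrigel-only set to a floor of 3 UMIs. Against the same floor in the Palo library it was at least 8367-fold higher.

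Of the collagen XI genes, *Col11a1* was also found outside Vehicle, while *Col11a2* gave few UMIs there. *Col11a1* stood at 19.9 CPM in Matrigel-only (398 UMIs, 17.9 to 21.9), 958 CPM in Vehicle (22590 UMIs, 945 to 970) and 61.8 CPM in Palo (978 UMIs, 58.0 to 65.8). The 3 levels were separated by more than their counting intervals. Vehicle was 48.2-fold above Matrigel-only (log2 5.59, 5.45 to 5.74) and 15.5-fold above Palo (log2 3.95, 3.86 to 4.05), and Palo was 3.11-fold above Matrigel-only (log2 1.64, 1.47 to 1.81). *Col11a2* was at 1.55 CPM in Matrigel-only (31 UMIs), 161 CPM in Vehicle (3808 UMIs) and 1.89 CPM in Palo (30 UMIs). Its ratio was 104-fold over Matrigel-only and 85.2-fold over Palo. The Palo over Matrigel-only log2 ratio of *Col11a2*, 0.29, had an interval of -0.48 to 1.07, so a difference was not detectable at this depth.

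*Col27a1* was the member with the highest level without rhBMP2, above *Col11a1*. Its level was 75.3 CPM in Matrigel-only (1509 UMIs, 71.5 to 79.2), 193 CPM in Vehicle (4555 UMIs, 188 to 199) and 96.7 CPM in Palo (1531 UMIs, 91.9 to 102). Vehicle was 2.57-fold above Matrigel-only and 2.00-fold above Palo, and Palo 1.28-fold above Matrigel-only. Among the members with reads in all libraries, *Col27a1* thus had the smallest ratio of Vehicle to either other library.

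The type IX chains gave at most 14 UMIs each outside Vehicle. *Col9a1* gave 0 UMIs in Matrigel-only, 5454 in Vehicle (231 CPM) and 0 in Palo, at least 1545-fold and at least 1220-fold higher in Vehicle against the floors of those libraries. *Col9a2* gave 7, 2308 and 12 UMIs (0.349, 97.8 and 0.758 CPM), a 280-fold and a 129-fold ratio. *Col9a3* gave 14, 4696 and 5 UMIs (0.698, 199 and 0.316 CPM), a 285-fold and a 630-fold ratio. For the pair with UMIs in both other libraries, the Palo over Matrigel-only log2 ratio was 1.12 for *Col9a2* (-0.34 to 2.70) and -1.14 for *Col9a3* (-2.97 to 0.41), both with intervals that held 0.

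*Col10a1*, the hypertrophic collagen, gave 5 UMIs in 3 Vehicle cells (0.212 CPM, 0.0688 to 0.495) and 0 in the other libraries, whose upper bounds were 0.184 CPM in Matrigel-only and 0.233 CPM in Palo. These intervals overlap. All 3 cells held UMIs of every other member.

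**Figure D1:**
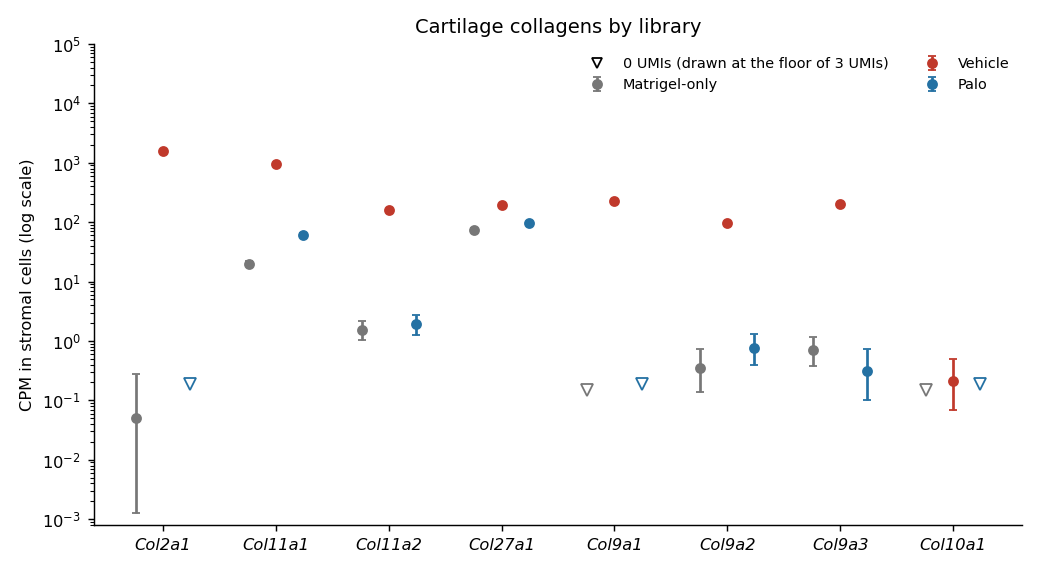
Level of each member in stromal cells of the 3 libraries, in CPM on a log scale, with exact Poisson 95% intervals. Open triangles mark libraries with 0 UMIs and are drawn at the floor of 3 UMIs. Vehicle points lie above the others for all members, but for *Col10a1* the others are floors that lie within the Vehicle interval. Only *Col11a1* and *Col27a1* reach 10 CPM outside Vehicle.

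Within Vehicle stromal cells the order of the levels was *Col2a1*, *Col11a1*, *Col9a1*, *Col9a3*, *Col27a1*, *Col11a2*, *Col9a2* and *Col10a1*. UMIs count captured molecules and were not divided by transcript length, and genes may differ in capture. The intervals of *Col9a3* (193 to 205 CPM) and *Col27a1* (188 to 199 CPM) overlapped, and all other neighbours were apart. In Matrigel-only and in Palo *Col27a1* led and *Col11a1* came next.

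Shares of cells were compared after each cell was thinned to 3100 UMIs, which kept 1878 Matrigel-only, 1303 Vehicle and 1130 Palo stromal cells. In Vehicle, 7 of the 8 members had a UMI in at least 5% of thinned cells. Without thinning the same 5% was reached by 10795 of the 31053 genes, and the share of all genes was not computed at the thinned depth. *Col11a1* was found in 51.3% of them (48.6% to 54.1%; 62.8% unthinned), *Col27a1* in 36.4% (73.5% unthinned) and *Col2a1* in 25.4% (23.0% to 27.8%; 36.3% unthinned). *Col9a1* was found in 22.8%, *Col11a2* in 20.7%, *Col9a3* in 19.4% and *Col9a2* in 16.5%. At this depth more cells held *Col11a1* than any other member, whereas without thinning *Col27a1* was found in the most cells. Outside Vehicle, *Col27a1* was found in 17.3% of Matrigel-only (35.4% unthinned) and 22.9% of Palo cells (53.2% unthinned), and *Col11a1* in 3.96% (7.53% unthinned) and 11.6% (20.02% unthinned). Each other member was found in under 1% there. *Col9a1* was found in 0 of 1878 Matrigel-only cells and 0 of 1130 Palo cells. By the floor of 3 cells, this allows a share of cells with a UMI at this depth of up to 0.160% and 0.265%, and sets no limit on cells that express the gene below detection.

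Leukocytes, which should lack these collagens, served as a measure of background. Thinning kept 2099 of the 3976 Vehicle leukocytes, whose median depth before thinning was 3274.5 UMIs over all 3976. In the kept cells *Col2a1* was found in 4.47%, *Col11a1* in 2.08%, *Col27a1* in 1.505% and each other member in under 1%. The leukocyte level in Vehicle was 0.860% to 2.84% of the stromal level for the 7 members with leukocyte UMIs. Outside Vehicle, leukocyte levels reached 41.1% of the stromal level for *Col11a2* in Matrigel-only and 55.1% for *Col9a3* in Palo. These rest on few UMIs, 14 leukocyte and 31 stromal for *Col11a2* and 5 of each for *Col9a3*. *Col11a1* gave 0 UMIs in Matrigel-only leukocytes, and in Palo its leukocyte level was 0.732% of the stromal level. The percent thus differed widely between genes of the same library. Whether the leukocyte UMIs of *Col11a2* and *Col9a3* there were free RNA was not tested.

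**Figure D2:**
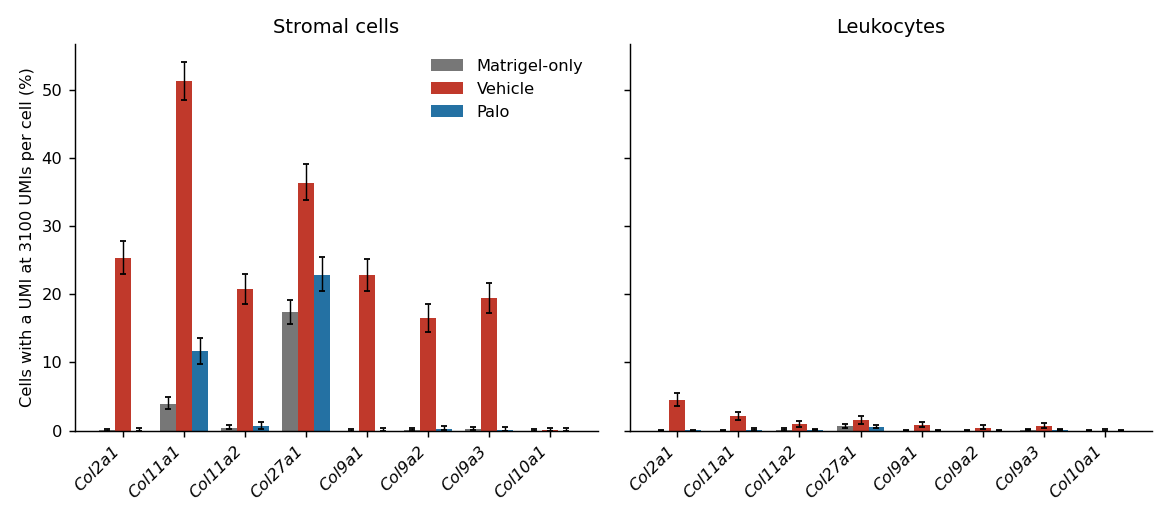
Percent of stromal cells (left) and of leukocytes (right) with a UMI of each member, after thinning to 3100 UMIs per cell, with exact binomial 95% intervals. Vehicle stromal shares run from 16.5% to 51.3% for all members but *Col10a1*, while no leukocyte share exceeds 4.47%.

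The UMIs were unevenly spread over cells. Among the Vehicle stromal cells, the 10% with the most *Col2a1* held 87.1% of its UMIs, and a single cell held up to 712. The corresponding share was 71.8% to 79.9% for the type IX genes, 72.6% for *Col11a2*, 54.7% for *Col11a1* and 44.5% for *Col27a1*. In Palo the 10% with the most *Col11a1* held 83.1% of its UMIs, and 237 cells held any. At least 20 member UMIs were held by 1 Matrigel-only cell, 499 Vehicle cells and 3 Palo cells.

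Members were found together in Vehicle cells more often than the product of their shares for all 28 pairs, and 2 times as often or more for 16. Without *Col10a1*, which had 5 UMIs, this was 10 of 21 pairs, with ratios from 1.31 for *Col11a1* with *Col27a1* to 3.25 for *Col9a3* with *Col11a2*. The percent shared differed with the member taken as the base, and this difference follows from the shares of cells with each member alone. Of cells with *Col2a1*, 85.9% also held *Col11a1*, but 42.5% of cells with *Col11a1* held *Col2a1*. Between 91.2% and 94.2% of cells with *Col11a2* or a type IX chain held *Col11a1*, whereas 29.5% to 41.6% of cells with *Col11a1* held any given one of these. Across the 1373 Vehicle cells, the correlation of log-normalised levels ran from 0.51 for *Col11a1* with *Col27a1* to 0.82 for *Col2a1* with *Col11a2*. These are cells of 1 library and share its depth and free RNA, and pairs of other genes were not counted, so the values are descriptions.

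**Figure D3:**
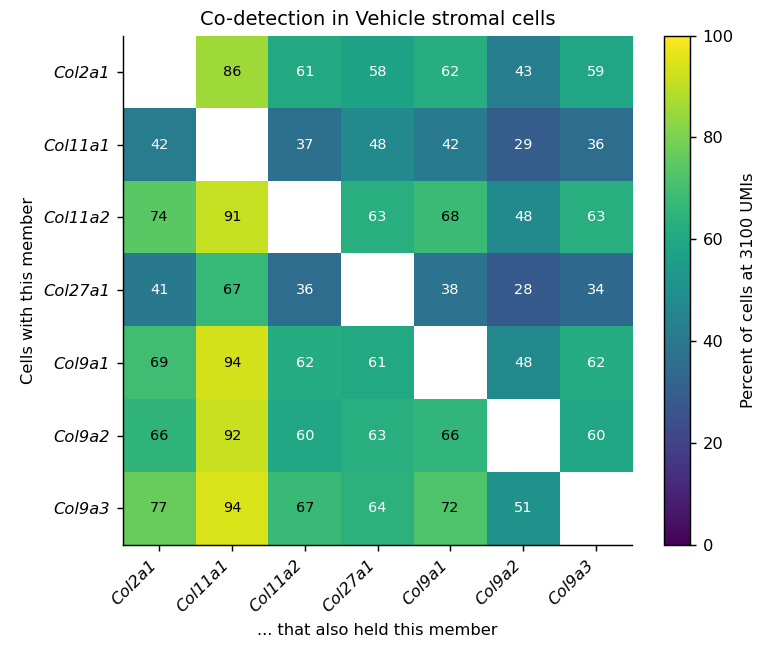
For each pair of the 7 members other than *Col10a1*, the percent of thinned Vehicle stromal cells with the gene of the row that also held the gene of the column. The *Col11a1* column is high for every other member but *Col27a1* (85.9% to 94.2%), while its own line holds lower values (29.5% to 47.7%). This difference between column and line follows from the larger share of cells with *Col11a1*.

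Members per thinned Vehicle cell were counted in 1 random draw, in which 32.4% of cells held none, 26.3% held 1 and 5.45% held 7. Where 1 member was found, it was *Col11a1* in 50.4% and *Col27a1* in 34.4% of 343 cells, and *Col2a1* in 7.58%. This order depended on depth. Without thinning, 282 cells held 1 member, which was *Col27a1* in 63.5% and *Col11a1* in 20.2%. In Matrigel-only and Palo no thinned cell of this draw held more than 3 members, and 1 cell in each held 3. Without thinning, 6 Matrigel-only and 8 Palo cells held 3, and 1 Palo cell held 4. Among thinned cells with 2 members, *Col11a1* was present in 92.3% and *Col27a1* in 96.2% of 26 Matrigel-only cells. Each was present in 95.3% of 43 Palo cells.

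To see in which order Vehicle cells gained the members, cells were ranked by the share of UMIs from 13 cartilage genes that are no members, among them *Sox9*, *Sox5*, *Sox6*, *Acan*, *Hapln1* and the matrilins. The 142 cells without such a UMI formed group 0, and the rest formed 10 groups of 123 or 124 cells. Group 0 was shallow, with a median of 9347.5 UMIs, and the ranking orders cells of a single day and is no time course. All 7 members with enough UMIs reached 50% of their highest level between groups 9 and 10, at positions from 9.08 for *Col27a1* and 9.09 for *Col11a1* to 9.28 for *Col2a1*. Such positions were too close to separate neighbours, and they depended on the ranking. With cells ranked by *Sox9*, *Sox5* and *Sox6* only, all 7 lay earlier, from 7.07 for *Col11a1* to 8.02 for *Col9a3*. *Sox9* reached 50% at 6.26, *Sox5* at 7.13, *Sox6* at 7.55, *Acan* at 8.15 and *Matn4* at 8.42. *Cnmd*, *Hapln1*, *Snorc*, *Matn3*, *Ucma* and *Chad* reached it after every member, at 9.35 to 9.5. All of these genes help to define the ranking.

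As percent of each member's highest level, the lower groups separated the members more clearly. In group 6, *Col27a1* was at 21.3% and *Col11a1* at 18.7% of the highest level, *Col9a2* at 6.99%, *Col11a2* at 4.66%, *Col9a1* at 4.37%, *Col9a3* at 3.17% and *Col2a1* at 1.33%. These percents depend on the highest level, which was largest for *Col2a1*. In CPM, *Col2a1* at 153 was below *Col11a1* in group 6 and beside *Col27a1* at 142, with overlapping intervals. *Col11a2* and the type IX genes were at 38.9 to 60.6 CPM there. *Col11a1* was at 53.1 CPM in group 0, 310 in group 4, 797 in group 6 and 4254 in group 10. *Col2a1* was at 7.22, 44.4, 153 and 11506 CPM in the same groups, and stood at 1060 CPM in group 7. *Col27a1* was at 73.5 CPM in group 0 and 668 in group 10. The fold between groups 10 and 0 was thus 9.09 for *Col27a1*, 80.1 for *Col11a1* and 1594 for *Col2a1*.

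In group 0, *Col27a1* stood at a level close to that of all Matrigel-only stromal cells (75.3 CPM), and *Col11a1* stood between its levels in all Matrigel-only (19.9 CPM) and all Palo stromal cells (61.8 CPM). Depth and make-up differ between these sets of cells, and their part was not tested.

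Measured against the CPM of leukocytes, the order took another form. *Col11a1* and *Col27a1* were above the Vehicle leukocyte level, intervals apart, from group 0 on. *Col9a2* was above it from group 2 on, at 4.95 CPM against 1.56 in leukocytes, and *Col2a1* from group 3 on, at 30.4 against 16.3 CPM. *Col9a1*, *Col9a3* and *Col11a2* followed from group 4 on, at 11.7, 13.0 and 9.87 CPM. In groups 0 to 2 *Col2a1* stood at 7.22 to 15.8 CPM, at or below the leukocyte level, although 7.75% to 22.8% of those cells held a UMI of it. This measure was chosen after the data were seen. Leukocytes were also shallower, with a median of 3274.5 UMIs against 9347.5 to 22153.5 in groups 0 to 2. The same number of background UMIs per droplet is thus a higher CPM in leukocytes. Leukocyte CPM therefore cannot fix the group where a member first exceeded background. For *Col2a1*, 3976 leukocytes held 261 UMIs. The 142, 124 and 123 cells of groups 0, 1 and 2 held 11, 36 and 35. UMIs per droplet were not otherwise compared, and background per droplet was not tested.

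**Figure D4:**
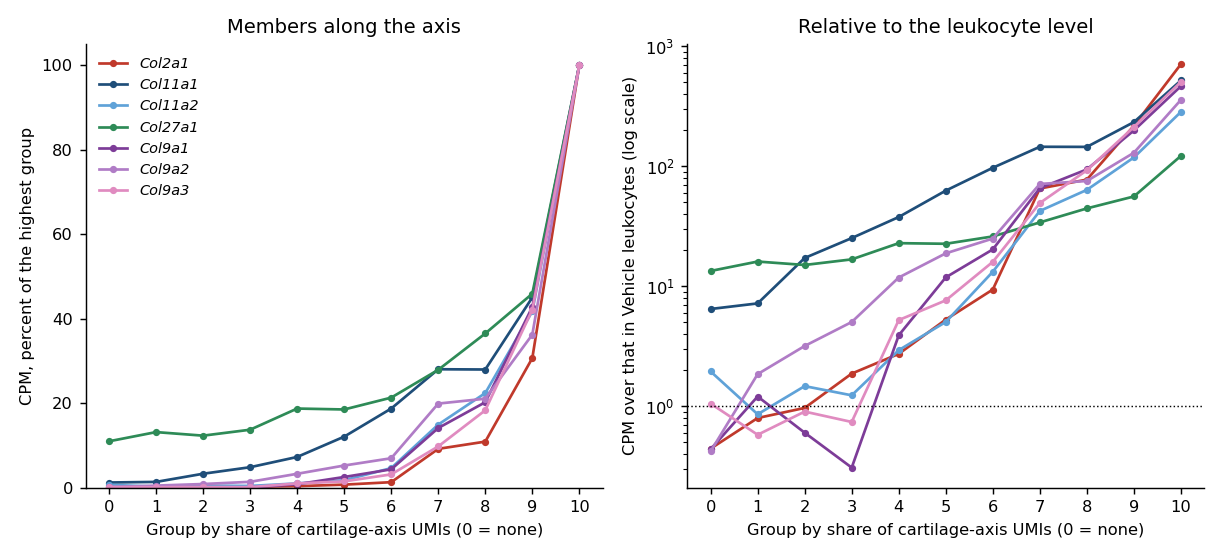
Levels of 7 members in 11 groups of Vehicle stromal cells ordered by the share of UMIs from the 13 cartilage genes, as percent of the highest group (left) and relative to the level in Vehicle leukocytes on a log scale (right, dotted line at 1). *Col11a1* and *Col27a1* lie above the dotted line in every group, and *Col2a1* is the lowest of the 7 as percent of its highest from group 4 on.

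The proportions between chains also changed along the groups. There were 28.5 *Col11a1* UMIs per *Col11a2* UMI in group 2 (15.7 to 57.8), 31.4 in group 4 (20.6 to 50.5) and 30.4 in group 5 (21.5 to 44.4), then 18.0, 8.37, 5.57 and 4.81 in groups 6 to 9 and 4.46 in group 10 (4.25 to 4.69). Group 0 had 8.10 (4.19 to 17.5), from 10 *Col11a2* UMIs. Across libraries the ratio was 5.93 in Vehicle (5.73 to 6.14), 12.8 in Matrigel-only (8.90 to 19.2) and 32.6 in Palo (22.7 to 48.6). The Palo value lay within the intervals of Vehicle groups 2, 4 and 5. The leukocyte level of *Col11a2* was 41.1% of the stromal level in Matrigel-only and 22.0% in Palo, from 14 and 12 leukocyte UMIs. Its part in these ratios was not tested. *Col2a1* per *Col11a1* ran from 0.111 to 0.220 in groups 0 to 6, was 0.888 in group 7 and reached 2.70 in group 10. The step from 0.191 in group 6 to 0.888 in group 7 exceeded the counting intervals, which leave out the spread between cells. A *Col2a1* UMI was found in 30.1% of group 6 and 42.3% of group 7 cells. The part of single cells in this step was not tested. Vehicle leukocytes gave 1.98 (1.60 to 2.46).

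Within collagen IX, *Col9a2* made up 42.7% of the chain UMIs in group 4 (32.7% to 53.2%) and 17.4% in group 10 (16.5% to 18.3%). *Col9a3* made up 30.2% in group 4 (21.3% to 40.4%), 22.7% in group 5 (16.5% to 29.9%) and 39.2% in group 10 (38.1% to 40.4%). *Col9a1* made up 27.1% in group 4 (18.5% to 37.1%) and between 42.3% and 45.7% in every later group. Leukocytes gave 42.5% *Col9a1*, 22.1% *Col9a2* and 35.4% *Col9a3*. UMI proportions are not chain proportions in the protein, which holds 1 of each chain.

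**Figure D5:**
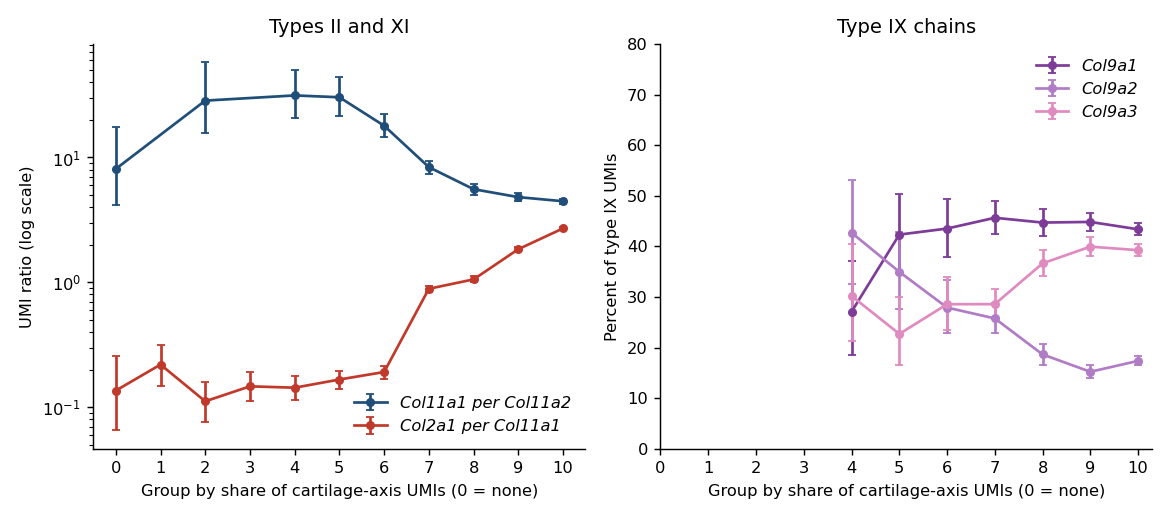
UMIs of *Col11a1* per *Col11a2* and of *Col2a1* per *Col11a1* (left, log scale) and the percent of type IX UMIs from each chain (right) in groups of Vehicle stromal cells, with exact conditional 95% intervals. Groups with too few UMIs are not drawn. *Col11a1* per *Col11a2* goes from 31.4 in group 4 to 4.46 in group 10, and the *Col9a2* share from 42.7% to 17.4%.

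*Col11a1* and *Col27a1* were also compared in cells with and without a UMI of *Sox9*, the chondrogenic regulator, and of *Pi16*, a marker of fibroblast progenitors. *Pi16* was found in 55.3% of Matrigel-only, 12.2% of Vehicle and 31.1% of Palo stromal cells, and *Sox9* in 23.7%, 79.7% and 34.5%, without thinning. *Col11a1* in Palo exceeded Matrigel-only in each class, by 5.47-fold in cells with *Pi16* (4.10 to 7.37), 2.17-fold in cells without (1.91 to 2.48), 2.30-fold with *Sox9* (1.94 to 2.74) and 3.64-fold without (3.09 to 4.29). For *Col27a1*, Palo exceeded Matrigel-only beyond the interval only in cells without *Sox9*, by 1.45-fold (1.32 to 1.61). The ratio was 0.908 in cells with *Pi16* (0.747 to 1.10), 1.08 in cells without (0.997 to 1.17) and 0.985 with *Sox9* (0.887 to 1.09). Over all stromal cells the *Col27a1* ratio was 1.28-fold. Depth differed between the split cells, with medians of 8419 Matrigel-only and 11021.5 Palo UMIs in those with *Pi16*. The part of cell make-up and depth in these ratios was not tested. In Vehicle the *Col11a1* level was 1111 CPM in cells with a *Sox9* UMI and 160 CPM in cells without.

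Companion genes were taken from lists and counted by the same 4-fold rule. Of 11 genes of the cartilage matrix that are no collagens, 7 were higher in Vehicle than in Matrigel-only and the same number than in Palo, and none was lower. *Acan*, the core protein of the large cartilage proteoglycan, gave 1269 CPM in Vehicle (29948 UMIs) against 1 UMI in Matrigel-only and 13 in Palo, and *Comp*, a protein that binds collagen fibrils, gave 320 CPM against 10 and 0 UMIs. Of 8 regulators, 2 were higher in Vehicle than in Matrigel-only and 3 than in Palo. *Sox9* stood at 53.5, 461 and 57.3 CPM in Matrigel-only, Vehicle and Palo, and *Sox6* at 2, 847 and 1 UMIs. *Sox9* was thus present in the libraries where *Col2a1* and *Col9a1* were at 0 or 1 UMI.

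Of 8 hypertrophic and bone genes, 6 were higher in Vehicle in each comparison. With 1 CPM added, none of the 4 lists held a gene past 4-fold between Palo and Matrigel-only. With none added, some genes of few UMIs passed it. *Chad* was 43.1-fold higher in Palo (34 against 1 UMIs), *Acan* 16.5-fold, *Mmp13* 8.02-fold and *Matn3* 4.22-fold. Conversely, *Epyc* stood at 0.0974 (1 against 13 UMIs) and *Alpl* at 0.230 times its Matrigel-only level. *Ibsp*, a bone matrix sialoprotein, stood at 765 CPM in Vehicle and at 0 UMIs in both others, *Sp7*, an osteoblast regulator, at 102 CPM against 1.30 and 1.58, and *Mmp13*, a collagenase, at 25.5 CPM against 0.150 and 1.20. *Col10a1* did not accompany them, with its 5 UMIs, and *Ihh* gave 7 Matrigel-only, 3 Vehicle and 3 Palo UMIs.

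Of 10 partner collagens outside the cartilage types, none was 4-fold higher in Vehicle with 1 CPM added. In Vehicle 1 was lower than in Matrigel-only and 2 were lower than in Palo, where 2.69% and 1.39% of all 10311 genes were. With none added, *Col24a1* was 4.08-fold above Matrigel-only and 2.39-fold above Palo. *Col12a1* was 3.08-fold and 1.75-fold above them. The genes of collagen V, which takes the place of collagen XI in non-cartilage fibrils, did not share the contrast. *Col5a1* stood at 2326, 2669 and 2303 CPM in Matrigel-only, Vehicle and Palo, *Col5a2* at 2071, 2613 and 2174 CPM, and *Col5a3* at 1261, 364 and 1563 CPM. The number of *Col11a1* UMIs per *Col5a1* UMI was 0.00853 for Matrigel-only, 0.359 for Vehicle and 0.0268 for Palo. *Col14a1*, a fibril-associated collagen of soft tissue, was at 1232, 283 and 1138 CPM.

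Genes that are no members were ranked by how like the members their log-normalised level was across the 1373 Vehicle cells. Of 10795 genes found in at least 5% of cells, those most like the summed members were *Acan* (r = 0.75), *Capn6* (0.72), *Frzb* (0.71), *Matn4* (0.69) and *Hapln1* (0.69). Among these genes *Hapln1*, which links aggrecan to hyaluronan, was most like *Col2a1* (0.79), *Col9a1*, *Col9a3* and *Col27a1* (0.55). *Frzb* was most like *Col9a2* and *Col11a2*, and *Capn6* most like *Col11a1* (0.71). Other members, left out of this ranking, could be more alike, as *Col2a1* was with *Col11a2* (0.82). These cells share 1 library, and the values are descriptions.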

How the data were processed

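Cells of day 5 masses were sequenced as 1 droplet library per group. The authors aligned reads to mm10 with Cell Ranger 3.0.2, per the submitters' processing notes, and deposited the raw counts of UMIs for every gene in every barcode. Seurat 3 is also listed there, and its clusters were not used here. Libraries held 44252421 Matrigel-only, 46317250 Vehicle and 46901673 Palo UMIs on 9249, 6065 and 7905 barcodes.

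Cells with 200 to 6000 genes and at most 5% mitochondrial UMIs were kept, the study's own limits. Leukocytes were cells under 1% stromal UMIs with at least 0.2% of UMIs from 5 leukocyte genes. No doublet caller was run. Leaving out stromal cells with leukocyte UMIs, or the deepest 5%, served as alternatives. Levels carry exact Poisson, ratios conditional binomial and shares Clopper-Pearson intervals. Thinning was to the lowest 10th percentile of stromal depth. It used the hypergeometric formula for shares and pairs, and 1 seeded random draw for members per cell. A called gene differed at least 4-fold with 1 CPM added. Named genes were the 8 members, 4 companion lists and the genes most like the members. The members and lists were chosen with earlier results of these data known. Positions come from GENCODE vM21 and promoters from RefSeq. Python 3.11.15, numpy 2.4.6, scipy 1.17.1, pandas 2.3.3, matplotlib 3.10.9 and edgeR 4.0.16 (TMM factors only) were used, and the scripts were tested on simulated data. Other settings tried numbered 20, with 1 added after the data were seen, and the split by *Pi16* and *Sox9* and the libraries' chain ratios were also chosen then.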

Additional observations from a re-analysis of the deposited data

Results flagged for a closer look

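Cartilage collagens were also found in barcodes that the limit of 6000 genes left out. In Vehicle, 104 such barcodes held 7278 member UMIs, a summed level of 1617 CPM against 3426 CPM in stromal cells, and 41 of them held at least 20 member UMIs. These barcodes held 7.94% of all member UMIs of the library, and 99 of the 104 met the stromal limit. The 16 Matrigel-only and 21 Palo barcodes over the limit stood at 173 and 181 CPM, and *Col2a1* was at 0 CPM in both. Whether they are single large cells was not tested.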

How the results depend on the processing

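Of 78 recomputed counts, 76 stayed within 1.5 times the reported one. Many were counts of members past 4-fold, which had little room to change. In the comparisons with Vehicle, the lowest ratio called was log2 3.93 and the highest not called 1.35, with 1 CPM added. Leaving out the filter on low values cannot change them. The 2 counts that moved were of pairs of members. The pairs of members found together at least 2 times as often as the product of their shares numbered 16 at full thinning depth, 25 at a depth 2 times lower and 11 without thinning. The pairs in the reported order numbered 11 of 21 by the first group above the leukocyte level, with 4 tied and 6 in the other order, and 15 to 21 under the other settings. *Col27a1* or *Col11a1* came first under each setting based on 50% or 25% of the highest group, and *Col2a1* last under each but the ranking by *Sox9*, *Sox5* and *Sox6*, where *Col9a3* was last. Of the recomputed log2 ratios of single members, 26 moved by more than their interval, mostly with 5 CPM or none added, and 238 did not. That of *Col2a1* for Palo over Matrigel-only, between levels at or under 3 UMIs, turned from -0.07 to 0.34 with libraries set to the floor, and no other nonzero ratio changed direction. With the deepest 5% of stromal cells left out, the log2 ratio of *Col27a1* for Palo over Matrigel-only was 0.50. No paired analysis was possible because each group has 1 library. Counting intervals of levels and ratios leave out the spread between cells. All intervals leave out the spread between mice and masses, which 1 library per group cannot show, and levels under 3 UMIs cannot be told from 0.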

Other observations

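The genes whose level across stromal cells was most like *Col11a1* were also ranked outside Vehicle. In Palo they were *Fmod* (r = 0.58), *Col8a2* (0.57), *Tenm3* (0.53), *Col12a1* (0.53) and *Cdh11* (0.50) over 1184 cells. In Matrigel-only they were *Fmod* (0.50), *1500015O10Rik* (0.44), *Ddah1* (0.42), *Wisp1* (0.41) and *Grem1* (0.40) over 2085 cells. *Fmod*, a small proteoglycan that binds collagen fibrils in cartilage and other connective tissue, led in both. The genes most like *Col27a1* there included *Tnc*, a matrix glycoprotein of connective tissue under repair, with r = 0.37 in Matrigel-only and 0.31 in Palo. These rankings were made after the data were seen, over cells of single libraries, and are descriptions.

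Along the groups of Vehicle cells, *Col3a1* and *Prrx1*, a mesenchymal transcription factor, were highest in group 0 and stood at 30.7% and 36.1% of that level in group 10. *Col1a1* was highest in group 3, between 85.5% and 100% of that level in groups 0 to 6, and at 51.3% in group 10, whereas *Lum* was highest in group 10. *Col1a1*, *Col3a1* and *Lum* are among the genes that define stromal cells here. Cells that passed the filters but were neither stromal nor leukocytes numbered 129 in Vehicle and held 0.907% of its member UMIs, and 4 of them held at least 20.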
